A study of Homo sapiens with 16 samples.

Results

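RWPE1 is an established line of human prostate epithelial cells that was immortalized with a human papillomavirus. The profile described here is that of RWPE1 cells carrying an empty vector (altered pTRIPZ), measured in 6 libraries. They were taken as the libraries labelled as control vector, and make up 6 of the 16 libraries of the study. The study set 6 libraries with a wild-type construct and 4 with its T164A mutant against these 6. RNA was enriched for poly-A transcripts and sequenced after TruSeq preparation, per the labels' protocols. Induction of the vector, origin from a clone and origin of the libraries from separate cultures are not given in the sources used here, so the spread between libraries may be technical. No contrast between groups is made, and every value below belongs to the vector libraries, called libraries 1 to 6 after the numbers in their labels.

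The prostate gland is lined by a layer of secretory luminal cells that rests on a layer of basal cells. Luminal cells carry the simple keratins KRT8 and KRT18, and secrete kallikreins and acid phosphatase. Basal cells carry the paired keratins KRT5 and KRT14, the transcription factor p63 (TP63) and hemidesmosomes that fix them to the basement membrane. In stratified squamous epithelia such as epidermis, basal cells that leave the basement membrane switch to KRT1 and KRT10, and then build a cornified envelope from involucrin, small proline-rich proteins and loricrin.

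Values are the authors' log2 values, and each ± is an SD over 6 libraries. A value counts reads per gene after scaling between libraries, so long genes collect more reads than short ones at an equal number of transcripts. Levels are in reads per gene unless they are given as log2 normalised reads per kilobase of exon, the scale on which members of a family are set against each other. Exon length is the union of a gene's annotated exons, and order within a family depends on it. Another length, that of the longest transcript, was tried for the highest genes only. The estimated depth was 12600000 to 16900000 reads per library. A floor of 3 estimated reads lay between 2.19 and 2.48 on the deposited scale, depending on the library, and it covers counting error only. Above the floor lay 14193 to 14576 of 20166 gene symbols per library. A gene is called detected where it was above the floor in all 6 libraries, silent where it was at or below it in all 6, and mixed otherwise.

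By that rule 13447 of 20166 symbols (66.7%) were detected, 2058 (10.2%) were mixed and 4661 (23.1%) were silent. The median level was 6.99 over all symbols and 8.93 over the detected ones. Means reached 8 in 8663 symbols (43.0%), 10 in 3996 (19.8%), 12 in 619 (3.07%) and 16 in 5. Among protein-coding genes 12783 of 17876 (71.5%) were detected, against 168 of 497 long non-coding RNAs (33.8%), 66 of 340 small nucleolar RNAs (19.4%) and 38 of 619 microRNA genes (6.14%). Poly-A selection keeps few short RNAs that lack a poly-A tail, and its part in the low shares of the last 2 classes was not tested. Reads were spread over many genes, since the 10 highest took 4.65% ± 0.058 of the estimated reads and the 100 highest 15.8% ± 0.26. No symbol that was given a chromosome was mitochondrial. These shares, and all ranks, are thus over the deposited symbols and not over all RNA.

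**Figure D1:**
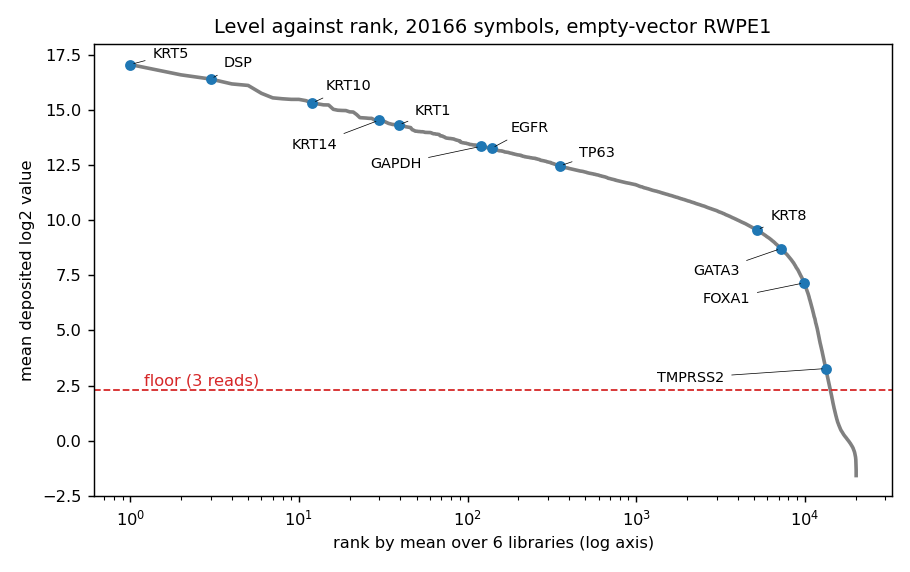
Mean deposited log2 value over the 6 libraries (y axis) against the rank of the gene by that mean (x axis, log scale) for 20166 symbols, with named genes as points and the mean floor of 3 reads, 2.32, as a dashed line. KRT5 stands at rank 1 with 17.05, TP63 at rank 353 with 12.45, KRT8 at rank 5195 with 9.55 and TMPRSS2 a little above the floor with 3.27.

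The highest gene was KRT5, the type II keratin of basal epithelial cells, at 17.05 ± 0.14. Its lowest, median and highest library values were 16.91, 17.05 and 17.18, and it took 0.889% of the estimated reads. The libraries formed no run between these ends, since libraries 1, 2 and 5 lay at 17.16 to 17.18 and libraries 3, 4 and 6 at 16.91 to 16.93. The 150 bases before the RefSeq start of KRT5 (GRCh38.p14, chr12:52520395-52520544, minus strand) are shown because no other gene had a higher level, by reads or per length. They hold neither TATAAA in the last 50 bases nor TGANTCA, the 2 motifs searched here, and are therefore in lower case throughout.
KRT5: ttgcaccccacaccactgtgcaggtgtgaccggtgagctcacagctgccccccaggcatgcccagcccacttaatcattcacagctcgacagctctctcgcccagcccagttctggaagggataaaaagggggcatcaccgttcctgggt

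Desmosome genes followed directly. PKP1, the plakophilin of stratified epithelia, had 16.58 ± 0.05, and DSP, the plakin that ties desmosomes to keratin filaments, had 16.39 ± 0.07. PERP, a tetraspan protein of desmosomes and a target of p63, had 15.47 ± 0.11. Further keratins in the 20 highest were KRT6A at 15.54 ± 0.13, KRT10 at 15.30 ± 0.09 and KRT16 at 15.26 ± 0.21. KRT6A and KRT16 are the keratin pair of hyperproliferative and wounded epidermis.

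The remaining genes of the 20 highest had other roles. The nuclear long non-coding RNAs NEAT1 and MALAT1 had 16.17 ± 0.21 and 15.47 ± 0.15. The 2 chains of the large neutral amino acid exchanger, SLC7A5 and SLC3A2, had 16.10 ± 0.25 and 14.96 ± 0.16, and the glutamine and alanine carrier SLC38A2 had 14.96 ± 0.05. Very long scaffold genes formed a further group, with AHNAK at 15.74 ± 0.08, AHNAK2 at 15.49 ± 0.03 and the cytolinker PLEC at 14.98 ± 0.14. LAMA5, a basement membrane laminin chain, had 15.21 ± 0.15. The translation factor EEF2 had 15.41 ± 0.19, the lysosomal saposin precursor PSAP 15.22 ± 0.07, the splicing factor SRRM2 15.02 ± 0.09 and the endoplasmic reticulum chaperone HSPA5 14.90 ± 0.07.

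Per kilobase the order changed for the long genes. Only 10 of these 20 were also among the 20 highest per kilobase, and 14 were among the 100 highest. The exon length had a median of 4796 bases in the 20 highest by reads, 1810 bases in the 20 highest per kilobase and 3637 bases over detected genes. NEAT1, with 22767 exon bases, fell to rank 130 per kilobase, and AHNAK, with 19246, to rank 160. KRT5 kept rank 1, at 15.71 ± 0.14 log2 reads per kilobase. KRT16 (14.54), the small heat shock protein HSPB1 (14.40), KRT6A (14.33), KRT10 (14.21) and PKP1 (14.13) came next among named genes. Then came the ribosomal pseudogene RPL13AP5 (14.10), whose reads cannot be told apart here from those of its parent gene, the calprotectin chain S100A9 (14.08), SLC7A5 (13.90) and the basal keratin KRT17 (13.88). Keratins thus made up 5 of these 10. The microRNA symbols MIR4426 and MIR3916 ranked 2 and 6 per kilobase on 63 and 94 bases of exon, and the naming rule leaves such symbols out.

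The 4 markers given for this line were all detected at high level. KRT14, the type I partner of KRT5, had 14.35, 14.51 and 14.77 as its lowest, median and highest library values and ranked 30 by reads. TP63, the transcription factor that maintains basal cells, had 12.38, 12.44 and 12.54 and ranked 353. KRT1, a keratin of suprabasal epidermis, had 14.25, 14.28 and 14.40 and ranked 39. KRT14 was above KRT1 in every library, and per kilobase KRT1 had 13.01 ± 0.06 against 13.79 ± 0.17 for KRT14. The basal markers were thus present, with a keratin of squamous suprabasal cells beside them. In bulk RNA, fewer cells of a type and less RNA per cell cannot be told apart, so it is not known whether KRT1 and KRT14 came from the same cells.

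All 16 genes of the basal epithelium list were detected, with a median level of 13.34 beside 6.99 over all symbols. Of the 16, 12 had a mean of 12 or more, a level that 3.07% of all symbols reached. The hemidesmosome genes were high: ITGA6 and ITGB4, the integrin chains that bind laminin, had 14.32 ± 0.04 and 13.81 ± 0.17, and the transmembrane collagen COL17A1 had library values from 13.78 to 14.26. LAMB3 and LAMA3, chains of the laminin these integrins bind, had 13.62 ± 0.15 and 11.69 ± 0.13. The plakin DST had 12.61 ± 0.17, and the basal cadherin CDH3 13.08 ± 0.08. KRT17 had 14.61 ± 0.19, TRIM29 13.59 ± 0.13 and KRT15 11.94 ± 0.08. The 2 lowest members were the Notch-ligand relative DLK2 at 7.53 ± 0.35 and the neurotrophin receptor NGFR at 5.61 ± 0.47.

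**Figure D2:**
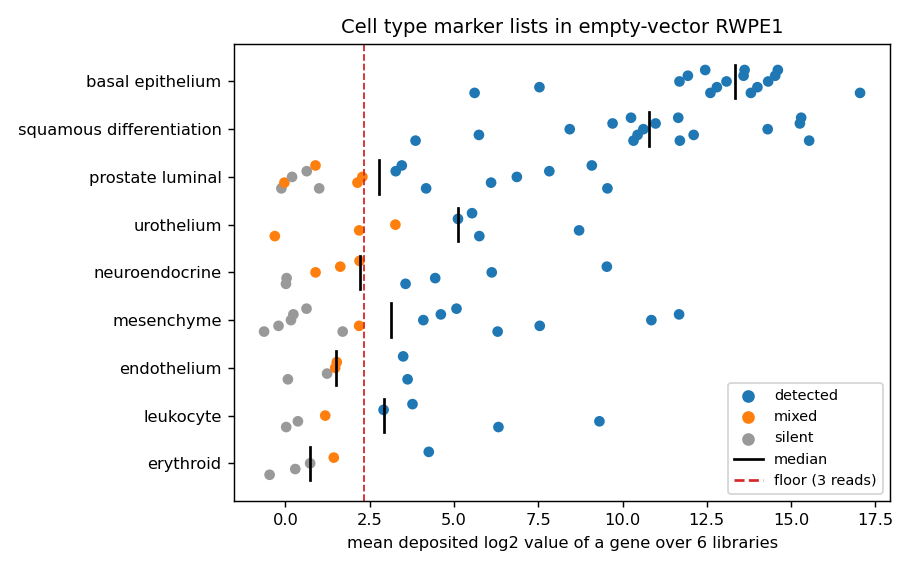
Mean deposited log2 value over the 6 libraries (x axis) of each gene in 9 cell type marker lists (rows), coloured as detected, mixed or silent, with the list's median as a black bar and the mean floor of 3 reads as a dashed line. Every basal and squamous marker is detected, with medians of 13.34 and 10.80, while the other 7 lists have medians of 0.73 to 5.12.

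All 16 genes of the squamous differentiation list were detected too, with a median of 10.80. Their levels covered a wide range, from 15.54 for KRT6A to 3.86 for LOR. After the keratins KRT6A, KRT10, KRT16 and KRT1 came the mucosal keratin KRT4 at 12.11 ± 0.08 and its partner KRT13 at 10.98 ± 0.27. Genes of the cornified envelope and upper layers were spread widely. The cross-linking enzyme TGM1 had 11.70 ± 0.16, SPRR1B 11.65 ± 0.29, involucrin (IVL) 10.62 ± 0.40, filaggrin (FLG) 10.45 ± 0.15 and the desmoglein DSG1 of upper layers 10.25 ± 0.20. Per kilobase SPRR1B (12.34) and SPRR1A (12.21) stood above KRT4 (10.74). The lowest of the list were CNFN at 5.74 ± 0.42 and loricrin (LOR) at 3.86 ± 0.46. The list thus ran from some of the highest levels of the whole profile down to LOR, a little above the floor.

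Of the 16 prostate luminal genes 8 were detected, 4 were mixed and 4 were silent, and their median was 2.78. The highest were the simple keratins KRT8 at 9.55 ± 0.64 and KRT18 at 9.09 ± 0.30. Acid phosphatase (ACPP, now ACP3) had 7.83 ± 0.09, the transporter SLC45A3 6.86 ± 0.19 and the metalloreductase STEAP2 6.10 ± 0.24. FOLH1, the prostate-specific membrane antigen, had 4.17 ± 0.54, the prostate homeobox factor HOXB13 3.45 ± 0.44 and the protease TMPRSS2 3.27 ± 0.55, all little above the floor. The cold-sensing channel TRPM8, the membrane protease HPN and the non-coding PCA3 were silent. Of the secretory products of luminal cells, acid phosphatase was thus detected, whereas KLK2, KLK3, KLK4 and MSMB were mixed. KLK3, the prostate-specific antigen, was above the floor in 3 libraries. Its values were 3.76, 4.19 and 3.47 in libraries 3, 4 and 6 and 0.01, 0.31 and 1.08 in libraries 1, 2 and 5, so libraries 1, 2 and 5 were below the floor and the other 3 above it. Simple keratins and acid phosphatase were thus present, whereas KLK2, KLK3, KLK4 and MSMB lay at or near the floor.

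Markers of other cells mostly had low levels, with exceptions. In the urothelium list 4 of 7 genes were detected, led by GATA3 at 8.71 ± 0.15, while of its uroplakins UPK2 and UPK3B were detected below 6 and UPK1A, UPK1B and UPK3A were mixed. The neuroendocrine list had 4 of 9 detected, led by the enolase ENO2 at 9.53 ± 0.12 and by UCHL1 at 6.12 ± 0.23, neither of which is restricted to neuroendocrine cells. Chromogranins CHGA and CHGB were mixed, and the lineage factor INSM1 was silent. In the mesenchyme list 7 of 14 were detected, with fibronectin (FN1) at 11.68 ± 0.35 and the collagen chain COL1A1 at 10.86 ± 0.21, whereas vimentin (VIM) had 7.54 ± 0.35. COL1A2, the chain that pairs with COL1A1 in type I collagen, was mixed at 2.19 ± 0.51, and COL3A1, DCN, LUM, DES, PDGFRA and PDGFRB were silent. COL1A1 thus stood far above the fibroblast genes it usually goes with.

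Blood and vessel markers were mostly low. Endothelium had 2 of 6 genes detected, VWF at 3.62 ± 0.33 and ERG at 3.49 ± 0.58, with CDH5 and CLDN5 silent. Leukocytes had 4 of 7, led by the lysosomal protein CD68 at 9.31 ± 0.20, which other cells also make, and by CD14 at 6.32 ± 0.33. The pan-leukocyte PTPRC was at 2.91 ± 0.57 and CD3E was silent. Of the erythroid genes ALAS2 was detected at 4.25 ± 0.55, and HBA1, HBA2 and HBB were silent, although reads of the near-identical HBA1 and HBA2 may be split between them. Over the 9 lists 62 of 96 measured genes (64.6%) were detected, beside 66.7% over all symbols, with the basal and squamous lists full and the other 7 at 30 of 64.

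Over 30 families, 200 of 319 members (62.7%) were detected, 48 were mixed and 71 were silent, beside 66.7% detected over all symbols. In 7 families every measured member was detected. The keratins, which form filaments from pairs of a type I and a type II chain, spanned the widest range. Of 25 type II keratins 16 were detected, 3 mixed and 6 silent. Per kilobase KRT5 (15.71 ± 0.14) and KRT6A (14.33 ± 0.13) led, followed by KRT1 (13.01 ± 0.06), the simple-epithelial KRT7 (11.99 ± 0.12) and KRT4 (10.74 ± 0.08). Of 28 type I keratins 10 were detected, 7 mixed and 11 silent. KRT16 (14.54 ± 0.21), KRT10 (14.21 ± 0.09), KRT17 (13.88 ± 0.19) and KRT14 (13.79 ± 0.17) led per kilobase, and KRT17 and KRT14 lay closer to each other than their SDs.

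Below these leaders KRT19, a keratin of simple and basal cells, had 11.54 log2 reads per kilobase and KRT13 10.08, and KRT18 had 8.08. In the type II family KRT8, the usual partner of KRT18, had 7.35 ± 0.65. In reads per gene the order was the other way, with KRT8 at 9.55 and KRT18 at 9.09. The silent members were mostly keratins of hair and hair follicle sheaths, such as KRT31, KRT35, KRT81, KRT71 and KRT25. KRT9, which is known from palm and sole skin, was detected at 9.42 ± 0.17 in reads per gene. KRT6A, KRT6B and KRT6C have near-identical sequences, so how reads were divided between them is uncertain, and KRT6B and KRT6C had SDs of 0.51 and 0.49.

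**Figure D3:**
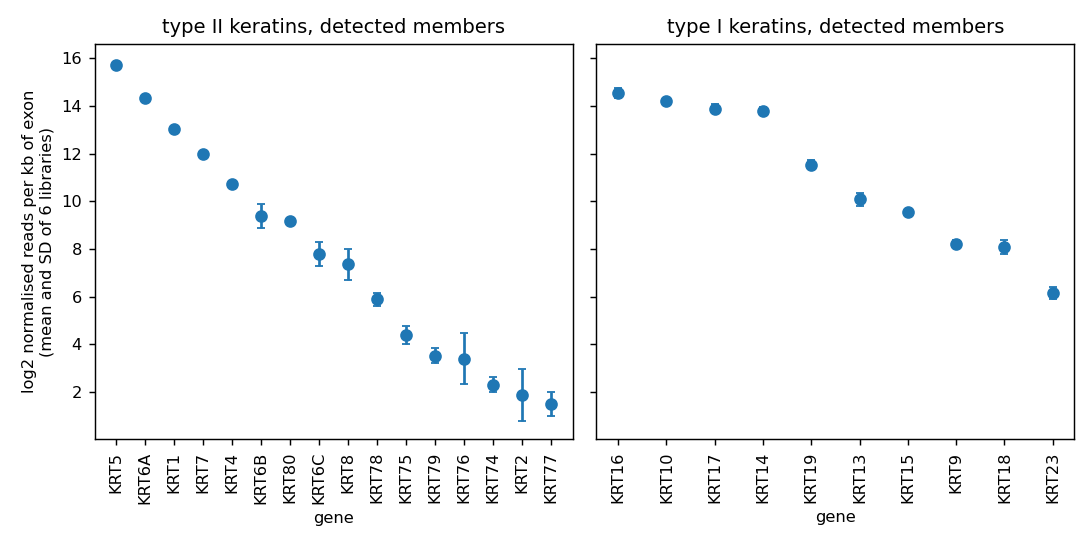
Log2 normalised reads per kilobase of exon (y axis) for the detected type II (left panel, 16 genes) and type I keratins (right panel, 10 genes), as the mean and SD of the 6 libraries, ordered by level. KRT5 leads at 15.71 among type II and KRT16 at 14.54 among type I, and KRT8 and KRT18 lie at 7.35 and 8.08.

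Of 20 S100 genes, small calcium-binding proteins many of which lie in the epidermal differentiation cluster, 16 were detected. Per kilobase S100A9 (14.08 ± 0.46) and S100A8 (13.42 ± 0.51), the 2 chains of calprotectin, stood highest, then S100A6 (13.20 ± 0.12), S100A11 (12.60), S100A14 (12.49) and S100A2 (11.94 ± 0.11), a target of p63. S100B and S100Z were silent, and S100A5 and S100G mixed. Reads of S100A7 and its close copy S100A7A may be split between them.

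Adhesion and channel families had 1 or a few leading members each. Of 7 desmosomal cadherins 6 were detected, with DSC3 (13.52 ± 0.06) and DSG3 (13.45 ± 0.06), the pair of lower epidermal layers, above DSC2 (12.75 ± 0.26), DSG2 (12.18 ± 0.20) and DSG1 in reads per gene. Per kilobase DSG3 had 10.98 and DSC3 10.70, against 7.86 for DSG1 and 3.78 for DSC1, the pair of upper layers. Among 10 cadherins E-cadherin (CDH1) had 11.66 per kilobase and P-cadherin (CDH3) 10.75, whereas N-cadherin (CDH2) had 2.84 and CDH5 and CDH17 were silent. Claudins, which seal tight junctions, had 12 of 20 detected, led per kilobase by CLDN7 (10.52) and CLDN1 (8.61). CLDN4 had 7.61, CLDN3 was mixed and CLDN5 and CLDN19 were silent.

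Gap junction genes had 10 of 20 members detected, with GJB2 at 12.62 log2 reads per kilobase, GJB6 at 10.98 and GJA1 at 10.22. GJB2 and GJB6 are the connexins of squamous epithelium, and the liver connexin GJB1 was silent. Of 12 aquaporins 3 were detected, and AQP3, the water and glycerol channel of basal epidermis, had 12.04 ± 0.32 per kilobase against 5.11 for AQP11 and 1.77 for AQP1. Its lowest library value in reads per gene was 12.56 and its highest 13.43. AQP5, the channel of secretory glands, was silent. Annexins, which bind membranes in a calcium-dependent way, had 9 of 12 detected, led per kilobase by ANXA1 (11.57) and ANXA2 (11.35).

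Growth factor receptors came next. EGFR had 13.25 ± 0.28, ERBB2 11.97 ± 0.09 and ERBB3 11.02 ± 0.10, and ERBB4 was silent. Per kilobase EGFR had 9.75 ± 0.28 and ERBB2 9.47 ± 0.09, above ERBB3 (8.12 ± 0.10). The spread of EGFR followed the libraries, with 13.61 reads per gene on the log2 scale in libraries 1 and 2 and 13.04 to 13.12 in the rest. ERBB2 had 11.87 to 12.14 over all libraries. Of their ligands NRG4 was highest per kilobase (8.14 ± 0.17), followed by TGFA (7.87), HBEGF (7.86) and EREG (7.17), although TGFA led in reads per gene at 10.14 ± 0.09. EGF itself was close to the floor at 3.42 ± 0.64, and NRG3 was silent. All 5 fibroblast growth factor receptors were detected, with FGFR3 at 10.38 log2 reads per kilobase and FGFR2, FGFRL1 and FGFR1 at 6.59, 6.28 and 5.04. In the Notch family 7 of 9 were detected: NOTCH3 at 14.63 ± 0.13 and NOTCH1 at 14.28 ± 0.17 were at ranks 24 and 41 of all genes by reads, and the ligand JAG1 had 12.97 ± 0.09. Per kilobase NOTCH3, NOTCH1 and JAG1 had 11.52, 11.06 and 10.40. JAG2 had 10.91 ± 0.26 in reads, whereas DLL4 was at 2.92 ± 0.43, and DLL3 and NOTCH4 were mixed.

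Nuclear receptors differed by hormone. The glucocorticoid receptor NR3C1 had 11.98 ± 0.09, the estrogen receptors ESR1 and ESR2 7.88 ± 0.20 and 5.04 ± 0.45 and the mineralocorticoid receptor NR3C2 4.70 ± 0.27, while the progesterone receptor PGR was silent. Per kilobase NR3C1 had 8.95, ESR1 4.18, NR3C2 1.98 and ESR2 1.73. Of the retinoid and vitamin D receptors RXRA had 12.97 ± 0.09, RARG, the main retinoic acid receptor of skin, 11.70 ± 0.09, RXRB 10.48 ± 0.04 and VDR 10.04 ± 0.08, and per kilobase the same order held at 12.09, 9.92, 8.93 and 7.62. RARB was mixed and RXRG silent.

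Transcription factors of stratified epithelium were present together. TP63 had 9.75 and its relative TP73 5.51 log2 reads per kilobase. All 3 grainyhead-like factors, regulators of epithelial barrier genes, were detected, with GRHL1, GRHL2 and GRHL3 at 9.77, 9.23 and 8.22 per kilobase. AP-2 factors had TFAP2A (8.81) and TFAP2C (8.72) at like levels per kilobase, TFAP2E lower at 4.82, and TFAP2B and TFAP2D silent. In the GATA family GATA3 (7.06 per kilobase) was followed by GATA2 (5.28) and GATA6 (4.41), and GATA4 and GATA5 were silent. The forkhead factor FOXA1, a pioneer factor of luminal cells, had 5.62 per kilobase, FOXA2 3.97, and FOXA3 was silent. Of 20 SOX factors 9 were detected, led per kilobase by SOX15 (8.77), SOX13 (8.35) and SOX4 (7.23), with SOX9 at 6.98 and SOX2 at 3.94. All 4 inhibitors of DNA binding were detected, with ID1 at 12.87 log2 reads per kilobase, ID3 at 11.34, ID2 at 8.25 and ID4 at 2.43.

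Cell cycle genes included all 3 D-type cyclins, at 8.15 (CCND2), 8.33 (CCND1) and 8.00 (CCND3) log2 reads per kilobase. All 7 inhibitors of cyclin-dependent kinases were detected. CDKN1A (p21) led at 12.55 per kilobase, with CDKN2B at 10.38 and CDKN2A at 8.66, and CDKN1C was lowest at 5.09. In reads CDKN1A had 13.87 ± 0.12 and ranked 68.

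Metabolic families were led by their ubiquitous members. Lactate dehydrogenase chains LDHA and LDHB had 12.16 ± 0.11 and 11.76 ± 0.15 in reads per gene. Per kilobase the order was the reverse, with LDHB at 11.09 ± 0.15 and LDHA at 10.59 ± 0.11, and the germ cell chain LDHC had 2.07. The order of LDHA and LDHB thus depends on whether reads are divided by exon length. Hexokinases HK1 and HK2 had 9.93 and 8.16 log2 reads per kilobase, and HK3 was silent. The glucose transporter SLC2A1 had 11.28 per kilobase, with SLC2A8 next at 7.89, the insulin-regulated SLC2A4 mixed and the liver carrier SLC2A2 silent. Cytoplasmic actins ACTB and ACTG1 had 12.72 and 12.15 per kilobase, and the muscle actins ACTC1 and ACTG2 were silent. Of 15 measured tubulins 10 were detected, led by TUBB (11.11 per kilobase) and TUBA4A (10.85), although several tubulin genes are close copies. Among 10 Toll-like receptors TLR6, TLR3, TLR5 and TLR2 had 5.67, 5.34, 5.31 and 5.01 per kilobase, while the endotoxin receptor TLR4 and TLR7, TLR8 and TLR10 were silent. Globins were the emptiest family, with 9 of 13 silent and myoglobin (MB) highest at 6.26 ± 0.16.

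Genes for 77 cytosolic ribosomal proteins were a further list, chosen after values had been seen. Of these 76 were detected, from RPS28 at 6.83 to RPS6 at 13.46, and 1 was mixed at a mean of 1.11. The median of the list was 11.66.

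Over the 8663 genes at a mean of at least 8, the SD between the 6 libraries had a median of 0.101, and 49.1% of the genes stayed below 0.1. An SD of 0.5 was reached by 15. The median SD was 0.121 for means of 8 to 9, 0.0825 for means of 12 to 13 and 0.112 for means of 14 or more. The highest genes were thus no steadier than the rest.

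**Figure D4:**
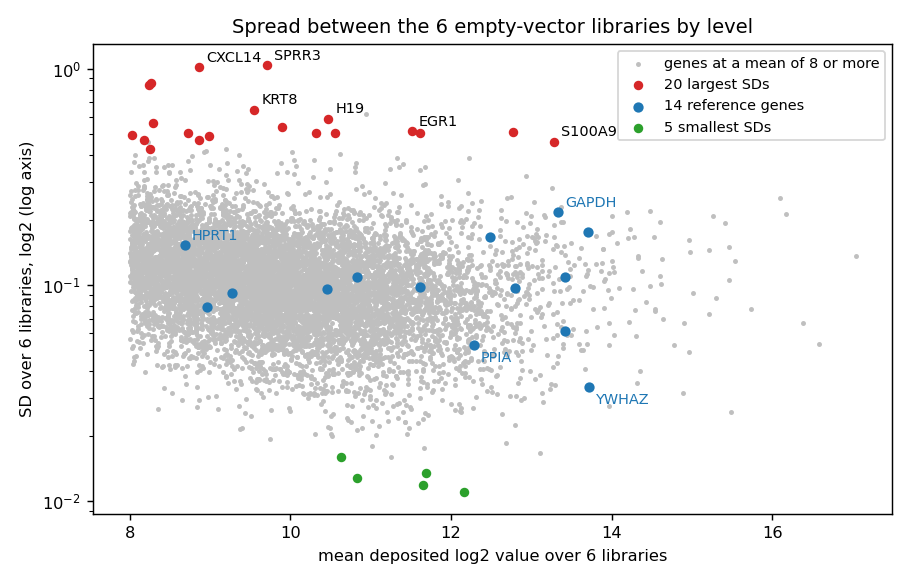
SD over the 6 libraries (y axis, log2 units on a log axis) against the mean deposited log2 value (x axis) for 8663 genes, with the 20 named genes of largest SD in red, 14 reference genes in blue and the 5 of smallest SD in green. SPRR3 and CXCL14 stand at SDs of 1.03 and 1.02, YWHAZ lies at 0.0336, and the grey point at 0.62 is the non-coding RN7SL1, which the naming rule leaves out.

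The 20 genes of largest SD were led by squamous genes and by CXCL14. SPRR3, a small proline-rich protein of the cornified envelope, had 8.26, 8.51, 10.44, 10.16, 10.57 and 10.28 in libraries 1 to 6, an SD of 1.03. CXCL14, a chemokine of epithelia, had 10.19, 10.17, 8.12, 8.20, 8.28 and 8.24, an SD of 1.02. Libraries 1 and 2 were lowest for SPRR3 and highest for CXCL14, and in neither gene did they overlap the other 4. Cornulin (CRNN), a calcium-binding protein of upper squamous layers, had 7.27, 7.07, 8.80, 8.64, 8.96 and 8.69. SPRR1A had 9.71, 9.72, 10.58, 10.49, 10.95 and 10.50. S100A9 had 12.64, 12.76, 13.54, 13.53, 13.73 and 13.50. In each of these, as in SPRR3, libraries 1 and 2 were below the rest and library 5 was highest.

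Promoters are printed for these genes as the 150 bases before the RefSeq start in GRCh38.p14, read 5′ to 3′ on the gene's strand. Libraries 1 and 2 were above the rest in CXCL14 and below them in SPRR3, CRNN, SPRR1A and S100A9. A split of these libraries from the rest was seen in all 20 genes of largest SD. The locations are chr1:153001599-153001748 for SPRR3 (plus), chr1:152414264-152414413 for CRNN (minus), chr1:152983931-152984080 for SPRR1A (plus), chr1:153357704-153357853 for S100A9 (plus) and chr5:135578992-135579141 for CXCL14 (minus). Capitals mark TATAAA, searched on the gene's strand in the last 50 bases, and TGANTCA, searched on both strands, where N is any base.
SPRR3: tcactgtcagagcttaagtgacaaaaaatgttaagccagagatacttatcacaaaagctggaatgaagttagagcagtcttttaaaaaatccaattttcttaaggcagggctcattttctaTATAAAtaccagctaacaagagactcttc
CRNN: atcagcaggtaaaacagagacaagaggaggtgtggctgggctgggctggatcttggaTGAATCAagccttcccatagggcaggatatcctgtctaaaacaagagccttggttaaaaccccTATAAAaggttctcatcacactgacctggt
SPRR1A: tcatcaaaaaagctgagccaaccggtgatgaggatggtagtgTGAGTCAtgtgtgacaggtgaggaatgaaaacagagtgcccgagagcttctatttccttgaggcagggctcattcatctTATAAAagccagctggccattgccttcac
S100A9: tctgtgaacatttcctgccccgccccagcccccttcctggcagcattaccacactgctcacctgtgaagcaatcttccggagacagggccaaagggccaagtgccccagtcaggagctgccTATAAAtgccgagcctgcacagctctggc
CXCL14: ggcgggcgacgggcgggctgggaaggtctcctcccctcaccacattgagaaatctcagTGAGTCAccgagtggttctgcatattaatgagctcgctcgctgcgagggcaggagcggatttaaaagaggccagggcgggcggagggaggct

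TATAAA began 29 bases before the start in SPRR3, SPRR1A and S100A9 and 30 bases before it in CRNN. In CXCL14 and KRT5 these letters were not in the window. TGANTCA is wider than the site that AP-1 factors bind, which has C or G in the middle. It began 93 bases before the start in CRNN, 108 in SPRR1A and 92 in CXCL14. The middle base was A in CRNN and G in SPRR1A and CXCL14. Over all 27305 promoter windows TATAAA was found in the last 50 bases in 2.92%, and TGANTCA in the last 250 bases in 6.6%. The 6 genes were picked for their levels or their spread, so these matches describe the sequences and were not tested.

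The other genes among the 20 fell on the same sides. Below the other 4 in libraries 1 and 2 were 12 genes, among them SPRR2E (7.29, 7.08, 8.84, 8.69, 9.04 and 8.67 in libraries 1 to 6), whose reads may be shared with close copies. S100A7 and S100A8, the antiprotease PI3, KRT6B, KRT6C, the integrin chain ITGB7 and the epidermal ion channel TRPV3 completed this set, with SDs of 0.427 to 0.535. Above the other 4 were 8 genes. KRT8 had 10.41, 10.29, 8.90, 9.20, 9.43 and 9.07, and the imprinted non-coding RNA H19 had 11.19 in both libraries 1 and 2 and 9.87 to 10.45 in the other 4. COL8A1, the immediate early factor EGR1, the dioxin-induced CYP1A1, the growth factor binding protein IGFBP3 and the laminin chain LAMB2 also stood on this side. Libraries 1 and 2 were apart from the rest on one side in 36.9% of all 8663 genes, 13.3% below and 23.6% above, beside all 20 of these, which their size of SD selected. Every other pair of libraries was apart in the same way in some genes, from 4.05% for libraries 2 and 6 to 26.5% for libraries 4 and 5.

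**Figure D5:**
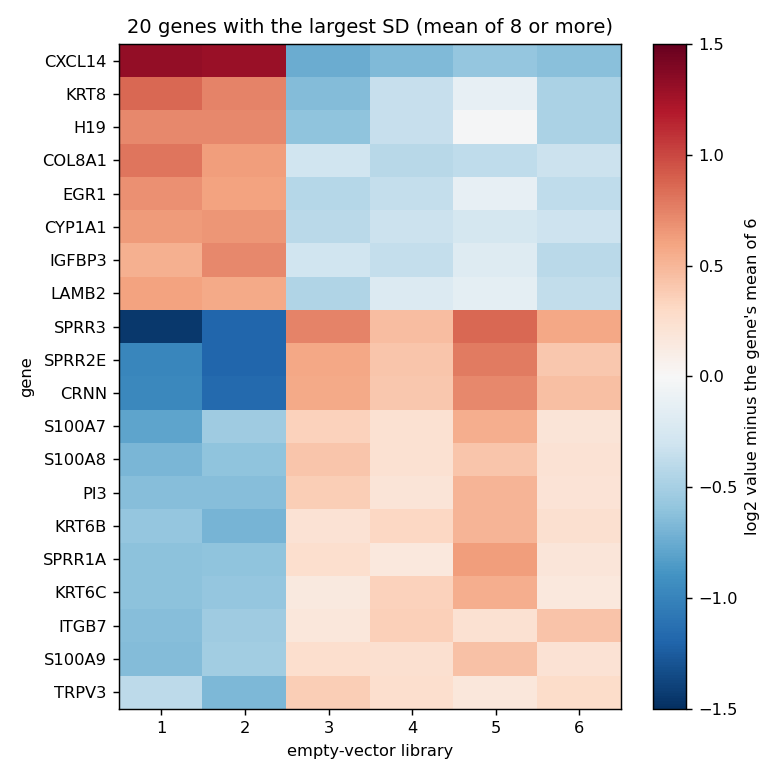
Log2 value minus the gene's mean of the 6 libraries (colour, from -1.5 to 1.5) for the 20 named genes of largest SD (rows) in empty-vector libraries 1 to 6 (columns). Libraries 1 and 2 are both high in 8 genes, from CXCL14 to LAMB2, and both low in 12, from SPRR3 to TRPV3.

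Marker lists followed this split unevenly. Of the 14 squamous genes at a mean of at least 8, libraries 1 and 2 were both below the other 4 in 8 and both above them in 4. Of the 14 basal genes at that level they were below in 0 and above in 5, and none of these 14 had an SD above 0.207. Over all 8663 genes they were below in 13.3% and above in 23.6%, or apart on either side in 36.9%. The basal list, taken over both sides, was thus near the share of all genes. KRT18 followed its partner KRT8, with 9.46 and 9.47 in libraries 1 and 2 and 8.80 to 9.03 in the other 4. The median SD was 0.135 in the basal list and 0.203 in the squamous list, beside 0.101 over all 8663 genes, and the difference between the lists was not tested.

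The libraries were not equally close. In a chi-square comparison of estimated reads over 964 genes, in which 1 per degree of freedom would be counting noise alone, libraries 1 and 2 had 3.92, libraries 4 and 6 had 6.77 and libraries 3 and 6 had 8.62, and the other pairs reached up to 62.1. No value was at that level, and no libraries were merged. Without libraries 1 and 2, an alternative added after the values had been seen, no gene had an SD of 0.5 or more and none of the 20 genes above remained among the 20 most variable. FTH1, the ferritin heavy chain, then had the largest SD, 0.385, with 11.26, 11.53, 12.05 and 11.21 in libraries 3 to 6. Library 5 was the highest there. The 855 genes of highest GC content (61.5% or more in the longest transcript) had a median deviation from their own mean of 0.164 in library 5 and of -0.15 in library 3, so base composition moved with the spread that remained, and its part in it was not tested.

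At the other end the 5 named genes of smallest SD were GBF1 (0.011), a guanine nucleotide exchange factor of the Golgi, the proteasome subunit PSMD2 (0.0119), ITPRIPL2 (0.0128), the citrate lyase ACLY (0.0135) and the iron-sulfur scaffold ISCU (0.016). GBF1 had 12.17, 12.14, 12.16, 12.17, 12.16 and 12.15 in libraries 1 to 6. Of 14 genes commonly used as references, a list chosen after values had been seen, YWHAZ was steadiest at an SD of 0.0336 around 13.71, and 2.02% of the 99 genes at a like level (within 0.5) had a smaller SD. PPIA, B2M and TBP had smaller SDs than most genes at their level, with 18.2%, 20.5% and 21.2% of these below them. GAPDH (13.34 ± 0.22), RPLP0 and ACTB were among the less steady, with 96.3%, 91.7% and 90% of like genes below. GAPDH had 13.58, 13.56, 13.15, 13.16, 13.46 and 13.12 in libraries 1 to 6, and libraries 1, 2 and 5 were above the other 3.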

How the data were processed

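Per the labels' protocols, TruSeq libraries of poly-A RNA from RWPE1 cells were read on an Illumina HiSeq. The authors deposited log2 values in 1 table of 21594 rows and 16 columns. The 6 columns of the empty-vector libraries were used, and the other 10 were not. GRCh37 is the build in the submitters' processing notes, which also list DESeq, Cufflinks 2.0.2, TopHat2 2.0.4 and CASAVA 1.8.2 without a role or order. The transform to log2 was not given in the sources used here. Once an offset of 1.89 is taken off the antilog, values above 11.5 sit on a grid of equal steps (99.6% to 100% of them, tolerance 0.05), as scaled read counts would. The steps gave the estimated depths and the floor of 3 reads. From 10 to 10.5 only 8.38% to 11.3% did, so low values hold added scatter and counts were not recovered. Over 4703 genes whose mean was under 1, the SD averaged 1.03.

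For 304 symbols on 1732 rows the row of highest mean was kept, which left 20166. Of these 20084 were found in tables of current symbols and 20028 had an exon length, taken from the union of exons in the basic set of GENCODE 29. That annotation is of another build than the authors' values, so no coordinates of the values are given. RefSeq promoter windows of 300 bases were at hand for 15 of the 20 most variable and 15 of the 20 highest genes, too few for a check, so no property of a set of promoters is given. Counting of near-identical copies and of overlapping genes was not described in those notes. Named genes are the 4 given markers, the 20 highest by mean and 10 per kilobase, members of the marker lists and families, and the 20 of largest and 5 of smallest SD at a mean of 8 or more, without symbols of the LOC, ORF, LINC, MIR, SNOR, AS and RN7S kinds. FTH1, RN7SL1, MIR4426 and MIR3916 were named after their values were seen. Members and lists were chosen with earlier results of these data known. Levels, ranks and spreads are descriptions without a test between groups. Library pairs were compared by chi-square and single libraries by a gap ratio. Alternatives were floors of 1 and 10 reads, a mean above the floor, the first row per symbol, no offset, rank by median, quantile normalization, other measures of spread, other minimum means and leaving out each library. The scripts (Python 3.11.15, pandas 2.3.3, numpy 2.4.6, matplotlib 3.10.9) were tested on simulated data. Some members of these lists are not reported here.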

Additional observations from a re-analysis of the deposited data

Results flagged for a closer look

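A gap ratio, the distance of the lowest or highest library to its nearest neighbour over the range of all 6, was taken for each of 266 values, and 13 passed the critical value of 0.625. Chance passes about 1 in 20 groups, and 4.17% of all genes at a mean of 8 or more passed it. Library 5 stood apart in 8 of the 13, and how often it did so among all genes that passed was not counted. It was highest for KRT16 (15.66 against 15.09 to 15.27 in the other libraries, ratio 0.695), KRT6A (15.79 against 15.45 to 15.53, 0.752) and PKP1 (16.68 against 16.53 to 16.58, 0.66), and lowest for AHNAK (15.58 against 15.76 to 15.80, 0.82). It was also highest for the claudins CLDN4 (9.94 against 9.55 to 9.68, 0.662) and CLDN7 (11.73 against 11.50 to 11.58, 0.632), for the glucose transporter SLC2A1 (13.47 against 13.21 to 13.28, 0.711) and for the share of reads in the 10 highest genes (4.76% against 4.60% to 4.66%, 0.665). In library 5 the 865 genes of shortest exon length had a median deviation of 0.0806 from their own mean and the 864 of longest exon length one of -0.0734, and the part of length in these values was not tested.

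The other 5 were single low values of genes at or near the floor, where the deposited values carry scatter. They were CLDN5 in library 1 (-1.93 against 1.51 to 2.36, ratio 0.802), TLR7 in library 2 (-2.49 against -0.16 to 0.51, 0.776), TLR10 (-1.89 against 0.85 to 2.09, 0.688) and NOTCH4 (0.38 against 2.29 to 3.29, 0.658) in library 3, and RARB in library 4 (-0.40 against 1.57 to 2.37, 0.71).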

How the results depend on the processing

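Of 396 values under alternatives, 375 stayed within 1.5 times the count reported, or within 1 SD for a share of reads. With a floor of 1 read 2642 genes were silent, against 4661. With a floor of 10 reads the detected members were 5 in the luminal list, 0 in the endothelial, 2 in the leukocyte and 0 in the erythroid list, and 6 claudins, 2 lactate dehydrogenases and 1 globin. Of the 20 highest genes, 10 remained per exon length and 10 per longest transcript, the last added after the data were seen. Spread depended most on the choices. By the median absolute deviation 5 genes reached 0.5 and 6 of the 20 most variable genes remained, and 6 genes reached 0.5 once the median SD at a like level was taken off. With a minimum mean of 6 the count was 32 and 8 of the 20 remained, and with 10 it was 7 and 7 remained. Without libraries 1 and 2, also added after the data were seen, 0 genes reached 0.5 and 0 of the 20 remained. Leaving out 1 library gave 7 to 19 genes at 0.5 against 15, with 7 without replicate 1 and 9 without replicate 2. It also gave 13475 to 13535 detected and 4746 to 4853 silent genes. Both of these counts can only stay or rise when a library is left out, since each asks for all libraries. Detected members of lists and families share this limit, and they are among the 396 values. No paired analysis was possible because no groups were compared. Depth limits what silent means: a gene at or below 3 reads was not detectable here, which does not show that it is absent.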
